A study of Mus musculus with 12 samples.

Results

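The genes described here are the 3 Y-box protein genes Ybx1, Ybx2 and Ybx3 and the 3 genes of the FMR1 family, Fmr1, Fxr1 and Fxr2. They were taken by symbol from the deposited expression table, in which all 6 were found among 28643 usable gene symbols. All 12 libraries came from round spermatids, the haploid germ cells that follow meiosis, purified from the testes of male mice, 8 weeks of age, by cell sorting with cycloheximide present. Igf2bp3+/- mice, with 1 intact copy of Igf2bp3, were the controls, and Igf2bp3-/- mice carried a Cas9-made frameshift in the first KH domain on both copies. By the study's methods the mutation was made in C57BL/6 zygotes, and the knockout males used for these experiments had been selected for impaired fertility. Each extract was divided into total input, sequenced as RNA-seq, and material run on a sucrose gradient, from which mRNAs with 4 or more ribosomes were sequenced as RNC-seq (ribosome nascent-chain complex). There were 3 replicates in each of the 4 groups of genotype and assay, and the labels do not say whether same-numbered libraries share a mouse. The p-values therefore measure the spread between these libraries only.

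Y-box proteins bind DNA and RNA through a cold shock domain. In male germ cells YBX2, also called MSY2, and YBX3, also called MSY4, coat stored mRNAs in ribonucleoprotein particles that are kept from ribosomes until the spermatid elongates, whereas YBX1 is found in many cell types. FMRP, the product of Fmr1, carries KH domains and an RGG box, associates with polysomes and represses translation of bound mRNAs in neurons. FXR1 and FXR2 are its autosomal relatives, and FXR1 activates translation of stored mRNAs in late spermatids. IGF2BP3, the protein lost in the knockout, is itself a KH domain protein that binds mRNA.

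The values were FPKM, that is, fragments scaled by transcript length and by library size, so that levels can be compared between genes. Between 21490 and 25633 genes had an FPKM above 0 in a library. 1 entry, CT010467.1, held 9.22% to 13.3% of the summed FPKM in Igf2bp3+/- RNA-seq and 5.68% to 9.25% in Igf2bp3-/- RNA-seq. In RNC-seq it held 15.9% to 19.4% in Igf2bp3+/- and 8.14% to 14.6% in Igf2bp3-/-. FPKM was not rescaled for it, and its part in the differences below was not tested. Read counts were not used here, so depth could only be estimated. A relative depth, estimated from the value that 1 fragment takes in genes with a single annotated transcript, was 1 in Igf2bp3-/- RNA-seq replicate 1 and 0.366 to 0.555 in the other 11 libraries. Igf2bp3 itself stood at 33.4 to 38.6 FPKM in the Igf2bp3+/- and 31.4 to 32.5 FPKM in the Igf2bp3-/- RNA-seq libraries, and at 31.4 to 43.0 and 40.6 to 43.1 FPKM in RNC-seq. A frameshift need not remove the RNA, so these levels do not check the genotype labels. Of the 8 round spermatid markers (Acrv1, Acr, Spaca1 and others) none was at 0 in any group, and their summed FPKM ran from 1085 to 2136 per library.

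Ybx1 lies on chromosome 4 (GRCm38, 119277981 to 119294604, minus strand) and Ybx3 on chromosome 6 (131364855 to 131388476, minus strand). Ybx2 (69935796 to 69941605) and Fxr2 (69632990 to 69653297) are both on the plus strand of chromosome 11, with starts 303 kb apart. Fxr1 is on chromosome 3 (34019943 to 34070322, plus strand) and Fmr1 on the X chromosome (68678541 to 68717963, plus strand). All 6 are protein-coding genes in GENCODE M21. Ybx1 has several processed pseudogenes. Gm11560 is 96.1% identical over 57.1% of the longest Ybx1 transcript and averaged 0.781 FPKM. CT009755.1 is 94.5% identical over 59.5% of it and has no value under that symbol. Ybx1-ps2 is 92.5% identical over 59.3% and averaged 0.131 FPKM. The Ybx1 values are uncertain to the extent that reads were divided among these copies. Of the Fxr1 exonic bases, 2.72% overlap Dnajc19 on the opposite strand, which averaged 24.3 FPKM. Of those of Igf2bp3, 18.7% overlap Malsu1 on the opposite strand, which averaged 3.14 FPKM. Strand use in the quantification is not stated.

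The Y box after which the first family is named is a promoter element built around an inverted CCAAT motif. The RefSeq promoters of the members on GRCm38.p6, each taken as 250 bases before to 50 bases after an annotated start, were searched for the core ATTGG on both strands (CCAAT on the other strand). Of the 8 promoters of the 6 genes, that of Ybx1 held 3 matches and one of the pair annotated for Ybx2 held 2. The remaining promoters, those of Ybx3, Fmr1, Fxr1 and Fxr2 and the second of Ybx2, held no match in these windows. Among all 32851 promoters in the table, 37.4% held at least 1 match, 11.7% at least 2 and 3.37% at least 3, while the longer form CTGATTGG was found in 4.1% and in no member. The matches are printed on the gene's own strand with the core in capitals and 10 bases on each side, since they show that the cores run in opposite orientations in Ybx1 and Ybx2. Positions of the core's first base are counted from the RefSeq start. By the GENCODE coordinates given above, the Ybx1 core at -52 and the Ybx2 core at -87 lie within the annotated gene, past its start.
Ybx1 at -135, chr4:119294634-119294658, minus strand: gctaaagataCCAATgagagcgcag
Ybx1 at -103, chr4:119294602-119294626, minus strand: ggagcgtgagCCAATaggcgctaga
Ybx1 at -52, chr4:119294551-119294575, minus strand: acgatgcggaCCAATgggggaggac
Ybx2 at -140, chr11:69935749-69935773, plus strand: cgcggctacgATTGGccggcggccg
Ybx2 at -87, chr11:69935802-69935826, plus strand: gccgactgcgATTGGcctcggctca

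All 3 Y-box genes were well expressed in control round spermatids, and Ybx2, the germ cell member, was the highest of them. In Igf2bp3+/- RNA-seq replicates 1, 2 and 3 (values are in this order throughout), Ybx2 stood at 59.2, 67.3 and 55.0 FPKM, or 60.5 ± 6.29 (SD, n = 3). Ybx1 stood at 42.7, 43.1 and 43.6 FPKM, or 43.1 ± 0.451 (SD, n = 3), the tightest values of any member. Ybx3 was at 42.5, 38.9 and 28.0 FPKM, or 36.5 ± 7.54 (SD, n = 3), with 1 library well below the others. These means lay at the 92.3, 89.8 and 88.4 percentiles of the 20494 genes with a mean above 0.1 FPKM in that group. Ybx2 supplied 41.0% to 45.1% of the summed Y-box FPKM of a library, Ybx1 28.9% to 34.4% and Ybx3 22.1% to 29.4%.

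The FMR1 family was far more unequal, since nearly all of its RNA came from Fxr1. Fxr1 stood at 135, 132 and 120 FPKM in Igf2bp3+/- RNA-seq, or 129 ± 7.93 (SD, n = 3), at the 96.6 percentile. Fxr2 was at 2.72, 2.74 and 2.42 FPKM, or 2.63 ± 0.179 (SD, n = 3), near the middle of expressed genes at the 54.9 percentile. Fmr1 was the lowest member at 1.02, 0.911 and 0.765 FPKM, or 0.899 ± 0.129 (SD, n = 3), at the 37.9 percentile. Fxr1 made up 95.5% to 97.8% of the summed FMR1 family FPKM in every one of the 12 libraries. In the control RNA-seq libraries Fxr2 took 1.97% to 2.02% and Fmr1 0.621% to 0.737%.

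The order of the means in control RNA-seq was Fxr1, Ybx2, Ybx1, Ybx3, Fxr2 and Fmr1, and no neighbors in it overlapped between libraries. The widest step was the 13.9-fold one from Ybx3 to Fxr2, and the narrowest the 1.18-fold one from Ybx1 to Ybx3. The Igf2bp3-/- RNA-seq libraries gave the same order, but there Ybx1 and Ybx3 overlapped. In RNC-seq the Y-box genes were less separable. Ybx1 overlapped both Ybx2 and Ybx3 in the controls, and in the knockout Ybx3 and Ybx1 overlapped, as did Fxr1 and Ybx2, whose means there differed by 1.14-fold. Fxr2 and Fmr1 were the last in the order in all 4 groups, without overlap.

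**Figure D1:**
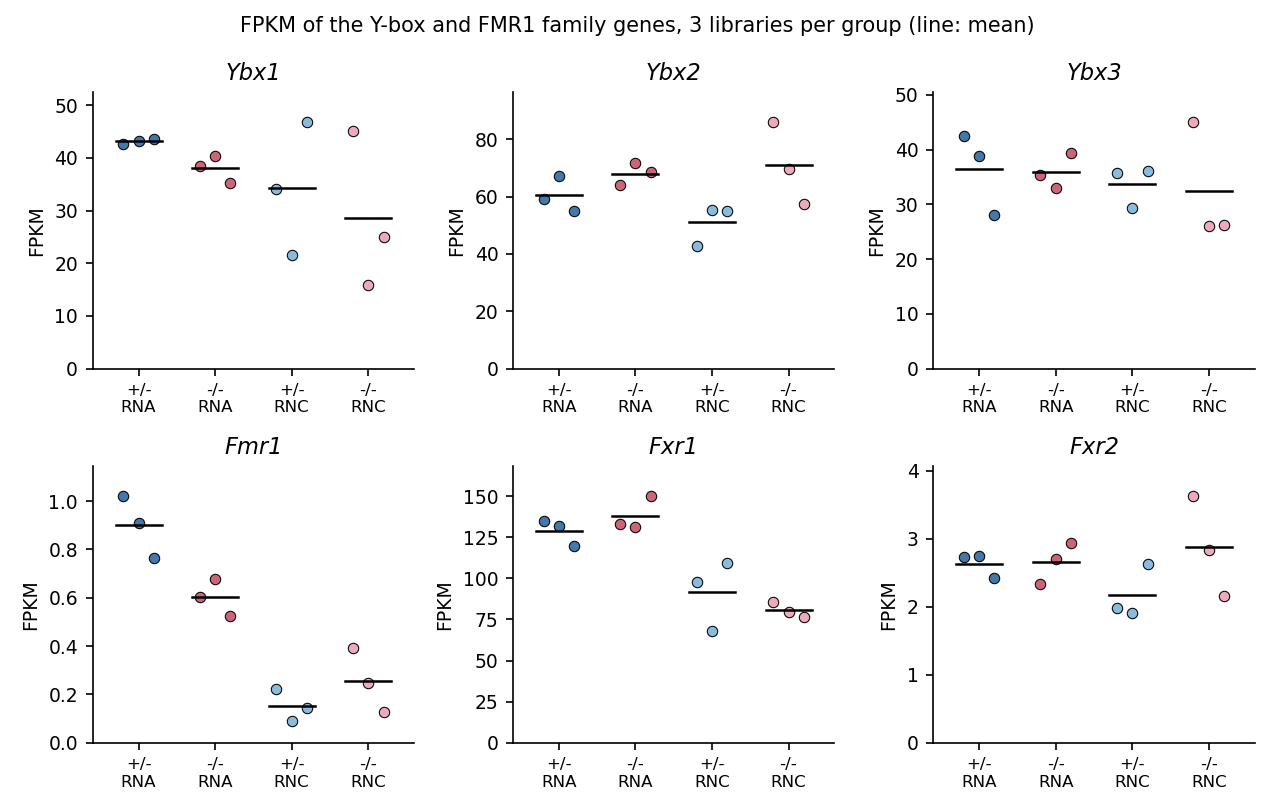
FPKM of each member in the 12 libraries, as points for the 3 replicates of each group and a line for their mean, with genotype and assay on the x axis and a linear y axis from 0. Fxr1 and Fmr1 sit lower in the RNC-seq than in the RNA-seq libraries of both genotypes, and the Ybx1 values of the RNC-seq libraries are widely spread.

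The first comparison asked whether total RNA of the members differed between Igf2bp3-/- and Igf2bp3+/- round spermatids. Fmr1 was at 0.605, 0.677 and 0.523 FPKM in the knockout (0.602 ± 0.0775, SD, n = 3), below every control value. Ybx1 was at 38.5, 40.4 and 35.2 FPKM (38.0 ± 2.62), also below every control value. Neither difference passed the test across all genes, which was limma on log2(FPKM + 0.1) with Benjamini-Hochberg adjustment over 20352 genes. The log2 difference was -0.51 ± 0.21 for Fmr1 (SE, adjusted p = 0.299, limma) with a 95% interval from -0.98 to -0.03. For Ybx1 it was -0.18 ± 0.09 (SE, adjusted p = 0.348, limma) with an interval from -0.38 to 0.01.

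The other 4 genes overlapped between genotypes. Ybx2 stood at 63.9, 71.6 and 68.5 FPKM in the knockout, a log2 difference of 0.17 (adjusted p = 0.439, limma). Ybx3 was at 35.3, 33.1 and 39.4 FPKM, a difference of -0.0028 with a 95% interval from -0.36 to 0.35, and Fxr2 at 2.34, 2.70 and 2.93 FPKM, a difference of 0.01 with an interval from -0.32 to 0.34. Fxr1 stood at 133, 131 and 150 FPKM, and its difference of 0.10 turned to -0.050 with quantile normalization. Thus 0 of the 6 genes passed the limit of 0.05 in either direction, beside 0.197% of all genes tested that were higher and 0.059% that were lower in the knockout (limma). Fmr1 alone had an unadjusted p below the limit (0.0387, limma), as did 3190 of the 20352 genes. The libraries of both genotypes were fully separate for 2 of the 6 genes, against 22.7% of all genes tested.

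In the polysome fraction the genotype comparison again gave no call among the members. Ybx2 was the gene whose values separated the genotypes. It stood at 42.9, 55.4 and 55.0 FPKM in Igf2bp3+/- RNC-seq and at 86.1, 69.5 and 57.5 FPKM in Igf2bp3-/- RNC-seq, so that the lowest knockout library lay just above the highest control. The log2 difference was 0.46 ± 0.22 (SE), with an unadjusted p of 0.0551 and an adjusted p of 0.767 (limma), and a 95% interval from -0.01 to 0.94. The median over all 19051 genes tested was 0.13, so relative to it the Ybx2 difference was 0.34. Without Igf2bp3-/- RNC-seq replicate 1, the library with the highest Ybx2, the difference was 0.32.

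Ybx1 ranged from 21.5 to 46.9 FPKM among the control RNC-seq libraries (34.2, 21.5 and 46.9) and from 15.9 to 45.1 among the knockout ones (45.1, 15.9 and 24.9). Ybx3 stood at 35.7, 29.4 and 36.2 FPKM in the controls and at 45.1, 26.0 and 26.2 FPKM in the knockout. In each genotype replicate 2 was the lowest Ybx1 library, and Igf2bp3-/- replicate 1 was the highest knockout library for all 6 members. The log2 differences were -0.31 for Ybx1, with a 95% interval from -1.12 to 0.49, and -0.10 for Ybx3, with an interval from -0.64 to 0.44. Both changed sign to 0.04 and 0.03 without Igf2bp3-/- RNC-seq replicate 2, and that of Ybx3 also without replicate 3.

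Within the FMR1 family, Fxr1 was at 98.0, 67.7 and 109 FPKM in control and 85.5, 79.7 and 76.8 FPKM in knockout RNC-seq, a log2 difference of -0.16 (adjusted p = 0.914, limma). Fxr2 was at 1.98, 1.91 and 2.62 FPKM against 3.63, 2.84 and 2.16 FPKM, a difference of 0.37 (adjusted p = 0.832, limma). Fmr1 was at 0.224, 0.0917 and 0.146 FPKM against 0.394, 0.248 and 0.127 FPKM, a difference of 0.45 with a wide interval from -0.54 to 1.45. All 3 overlapped between genotypes. With 1 library left out the difference ran from 0.18 (without Igf2bp3-/- replicate 1) to 0.74 (without Igf2bp3-/- replicate 3) for Fmr1, from 0.19 to 0.56 for Fxr2 without the same libraries, and from -0.36 to -0.016 for Fxr1 (without Igf2bp3+/- replicates 2 and 3), with none called. The Fmr1 value was 0.12 with a pseudocount of 1 and 0.65 with 0.01. In total 0 of 6 members passed the test in RNC-seq, beside 0.0787% of all genes higher and 0.0367% lower (limma), and 1235 genes had an unadjusted p below the limit, none of them a member. The genotypes were fully separate for 1 of 6 members, Ybx2, against 11.3% of all genes.

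Markers of some testis cell types differed with genotype in the same libraries. The summed FPKM of 7 Leydig cell markers (Cyp11a1, Star, Insl3 and others, none at 0 in every library of a group) was 15.4 to 22.6 in control and 48.6 to 55.0 in knockout RNA-seq, and 6.75 to 14.3 against 51.5 to 103 in RNC-seq. Most of these sums was Insl3, with means of 14.9 and 39.3 FPKM in control and knockout RNA-seq and 7.83 and 64.1 FPKM in RNC-seq. The test called 4 of the 7 higher in RNA-seq and 1 in RNC-seq, beside 0.197% and 0.0787% of all genes. The 8 Sertoli cell markers summed to 4.50 to 5.60 FPKM in control and 9.10 to 9.33 in knockout RNA-seq. Of these, 5 could be tested and 1 was called higher, while Rhox5 had a value below 0 (-0.81). In RNC-seq the Sertoli markers summed to 1.79 to 2.05 against 4.11 to 5.49 FPKM with none of the 4 tested called, and Fshr was at 0 in all 6 libraries. Macrophage and blood markers summed to 7.44 to 9.01 against 14.7 to 16.0 in RNA-seq, with 2 of 8 called higher. In RNC-seq they summed to 12.2 to 12.8 against 15.7 to 31.0, with none of the 6 tested called. Most of that RNC-seq sum was Hbb-bs, with means of 8.51 in control and 16.5 FPKM in knockout. All 8 round spermatid markers had values above 0 between genotypes in both assays, with a median log2 difference of 0.30 in each and none called. Over all genes the median was 0.05 in RNA-seq and 0.13 in RNC-seq. The round spermatid markers summed to 1085 to 1213 FPKM in control and 1380 to 1582 in knockout RNA-seq, and to 1520 to 1696 against 1792 to 2136 in RNC-seq, with no overlap. The 5 peritubular markers summed to 1.55 to 1.73 FPKM in control and 1.05 to 1.60 in knockout RNA-seq, with overlap. Of the 4 tested there, 3 had values below 0 and 1 above, and none was called. In RNC-seq the peritubular markers summed to 0.783 to 1.18 against 1.32 to 2.09 FPKM, and none of the 3 tested was called. The sums of spermatogonia, spermatocyte and elongating spermatid markers overlapped between genotypes in both assays. The part of these markers in the values of Ybx1, Fmr1 and Ybx2 was not tested. In such samples more or fewer cells of a type cannot be told apart from more or less RNA per cell.

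Translational efficiency (TE) was next compared between genotypes, since it relates the polysome level of an mRNA to its total level. As a ratio of mean RNC-seq to mean RNA-seq FPKM, the TE of the median gene was 0.947 in Igf2bp3+/- and 0.997 in Igf2bp3-/- over 17408 genes, and the Y-box genes lay between the 28.0 and 54.1 percentiles. The ratio was 0.793 and 0.753 for Ybx1, 0.845 and 1.05 for Ybx2, and 0.926 and 0.903 for Ybx3 in Igf2bp3+/- and Igf2bp3-/-, respectively. Fxr2 was similar at 0.827 and 1.08. Fxr1 was lower at 0.711 and 0.584, the 33.6 and 14.3 percentiles, and Fmr1 was the lowest member at 0.171 and 0.426, the 1.34 and 5.46 percentiles of all genes.

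The test of the TE difference, fitted as the genotype by assay interaction in all 12 libraries, called none of the 6 members, beside 0.00543% of the 18414 genes tested that were higher, a single gene, and 0.0% lower (limma). Fmr1 had the widest difference, 0.96 ± 0.46 on the log2 scale (SE), with a 95% interval from -0.03 to 1.94, an unadjusted p of 0.0560 and an adjusted p of 0.708 (limma). No member was among the 1312 genes with an unadjusted p below the limit. The Fmr1 value depended on the pseudocount, being 0.36 with a pseudocount of 1 and 1.22 with 0.01, since its RNC-seq values were at or near the pseudocount. Fxr2, Ybx2, Ybx3, Ybx1 and Fxr1 differed by 0.36, 0.29, -0.10, -0.13 and -0.26, with adjusted p-values from 0.770 to 0.945 (limma).

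**Figure D2:**
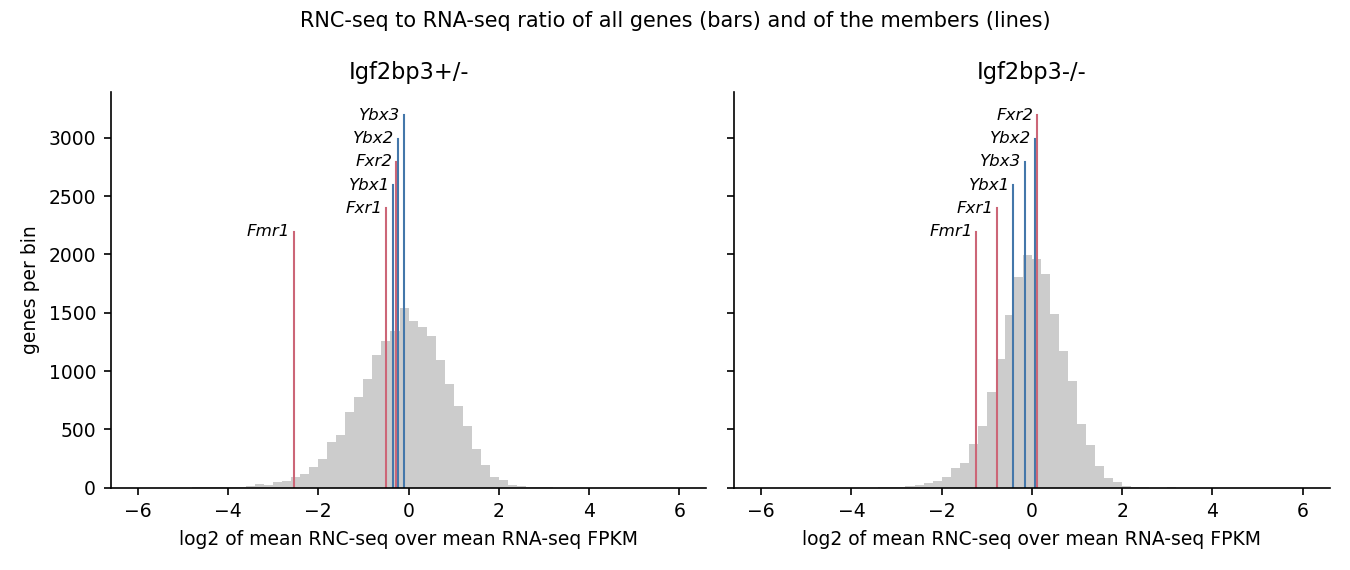
Number of genes per bin of the log2 ratio of mean RNC-seq to mean RNA-seq FPKM (bars, 17408 genes) in each genotype, with a vertical line at each member, blue for Y-box and red for FMR1 family genes; line height only spaces the names. Fmr1 lies in the lower tail at ratios of 0.171 and 0.426, and the Y-box genes lie between the 28.0 and 54.1 percentiles.

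Members were called only in the comparison of RNC-seq with RNA-seq within a genotype. It was fitted over all 12 libraries and 18414 genes and asks which mRNAs were under-represented on polysomes relative to the total. Fmr1 and Fxr1 were lower in RNC-seq in both genotypes. In Igf2bp3+/- every RNC-seq value of Fmr1 (0.0917 to 0.224 FPKM) was below every RNA-seq value (0.765 to 1.02 FPKM), a log2 difference of -2.00 ± 0.32 (SE, adjusted p = 0.000309, limma). In Igf2bp3-/- the values of 0.127 to 0.394 FPKM lay below those of 0.523 to 0.677 FPKM, a difference of -1.04 ± 0.32 (SE, adjusted p = 0.0299, limma).

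Fxr1 fell from 120 to 135 FPKM in RNA-seq to between 67.7 and 109 FPKM in RNC-seq of the controls, a log2 difference of -0.52 ± 0.16 (SE, adjusted p = 0.0200, limma). In the knockout it fell from 131 to 150 FPKM to between 76.8 and 85.5 FPKM, a difference of -0.77 ± 0.16 (SE, adjusted p = 0.00409, limma). Among the changes of all genes tested, Fxr1 lay at the 32.0 percentile in Igf2bp3+/- and the 13.6 percentile in Igf2bp3-/-. Fmr1 lay at the 2.72 and 7.42 percentiles. The assays did not overlap for either gene in either genotype. These were the 2 of 6 members called lower in each genotype and no member was called higher, beside 25.2% of all genes lower and 18.6% higher in Igf2bp3+/- and 14.0% lower and 12.5% higher in Igf2bp3-/- (limma). The assays were fully separate for 2 of 6 members in each genotype, against 55.6% of all genes in Igf2bp3+/- and 40.7% in Igf2bp3-/-.

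The remaining 4 genes were not called. In Igf2bp3+/- their log2 differences were -0.40 for Ybx1, -0.27 for Fxr2, -0.25 for Ybx2 and -0.10 for Ybx3, with adjusted p-values from 0.241 to 0.752 (limma), and that of Ybx3 turned to 0.07 when each library was centered on its median. In Igf2bp3-/- they were -0.54 for Ybx1, -0.19 for Ybx3, 0.09 for Fxr2 and 0.05 for Ybx2, with adjusted p-values from 0.229 to 0.866 (limma), and that of Ybx2 turned to -0.03 with quantile normalization. The 95% interval for Ybx1 in the knockout was wide, from -1.21 to 0.14, and without Igf2bp3-/- RNC-seq replicate 1 Ybx1 passed the test at -0.93 (adjusted p = 0.0308, limma).

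Single libraries decided some of these calls. The Fxr1 call in Igf2bp3+/- was lost without RNA-seq replicate 1 (-0.48, adjusted p = 0.0645, limma), RNA-seq replicate 2 (-0.50, 0.0591) or RNC-seq replicate 2 (-0.31, 0.0715), whereas in Igf2bp3-/- it held without any library. The Fmr1 call in Igf2bp3-/- was lost without RNA-seq replicate 1 (-1.04, adjusted p = 0.0822, limma), replicate 2 (-0.97, 0.101) or replicate 3 (-1.13, 0.0523), or without RNC-seq replicate 3 (-0.75, 0.121), while in Igf2bp3+/- it held without any library. The size of the Fmr1 difference followed the pseudocount, with -0.72 and -0.36 at a pseudocount of 1 and -2.54 and -1.33 at 0.01 in Igf2bp3+/- and Igf2bp3-/-, respectively. A rough fragment number was taken from the low-value step and the longest annotated transcript of 4409 bases. By it Fmr1 rested on roughly 10.0 to 41.3 fragments in an RNC-seq library and 49.4 to 131 in an RNA-seq library. That this step equals 1 fragment was not checked.

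When libraries were centered on their medians, the median gene in Igf2bp3+/- moved from -0.10 to 0.07, and the split of calls went from 3420 higher and 4639 lower to 4725 higher and 3621 lower. Under it Fmr1 stayed at -1.83 and Fxr1 at -0.35 (adjusted p = 0.0424, limma).

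**Figure D3:**
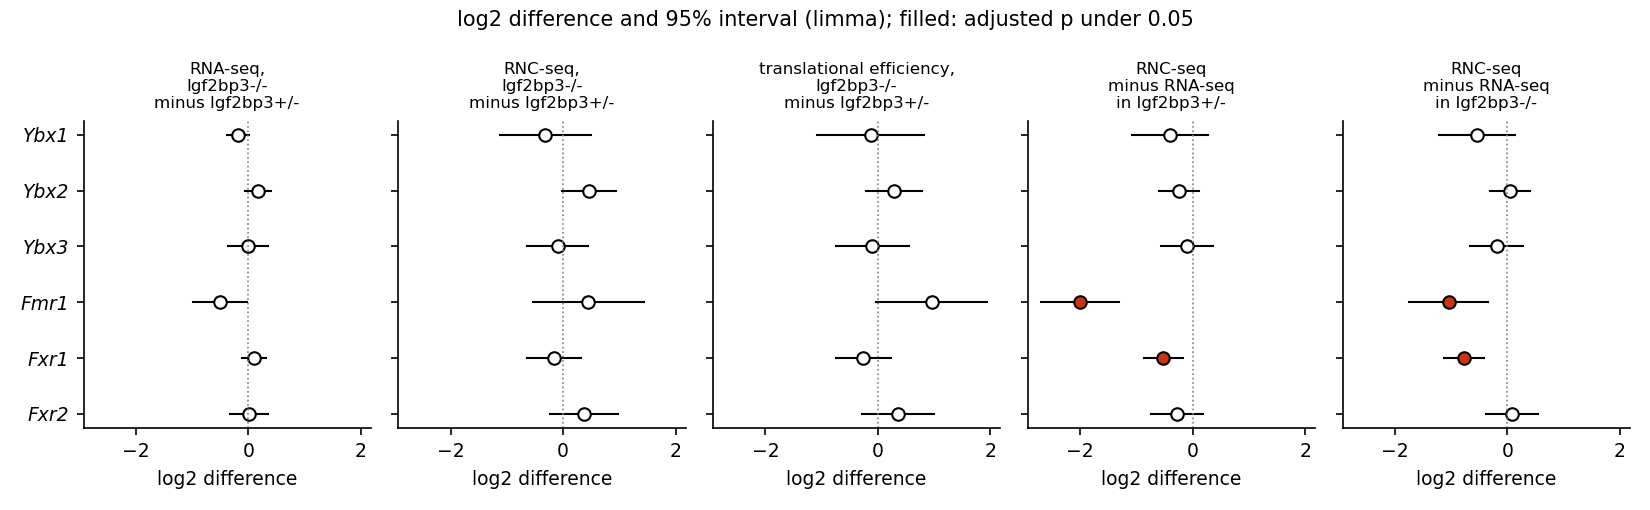
log2 differences of the 6 members in the 5 comparisons, with bars for 95% intervals from limma and filled points for an adjusted p under 0.05. Fmr1 and Fxr1 are filled in both comparisons of RNC-seq with RNA-seq, at -2.00 and -0.52 in Igf2bp3+/- and -1.04 and -0.77 in Igf2bp3-/-, and no point is filled in the 3 comparisons of genotype.

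Ratios of relatives within the same library do not depend on how libraries are scaled and were compared in an added step, chosen after the members' values had been seen. For each of the 6 pairs within a family, the log2 ratio was compared between assays within genotype, and between genotypes within assay, with an exact permutation test in which 0.005 is the smallest two-sided p of 400 arrangements. The test treated all libraries as independent, although each extract was divided between the assays. The 3 pairs of the FMR1 family passed the adjusted limit between assays and no Y-box pair did. These 3 pairs share 3 genes and come from the libraries already tested. They are therefore not independent of each other or of the calls for Fmr1 and Fxr1.

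The Fxr2 to Fmr1 ratio was 2.67, 3.01 and 3.17 in control and 3.86, 3.98 and 5.62 in knockout RNA-seq. On polysomes it was 8.84, 20.9 and 18.0 in the controls and 9.22, 11.5 and 17.0 in the knockout, above every RNA-seq library. The shift was 1.90 on the log2 scale, with p = 0.005 by the exact permutation test and 0.03 after Benjamini-Hochberg adjustment over 6 pairs.

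The Fxr1 to Fmr1 ratio rose as well, by 1.35 (exact permutation p = 0.015, adjusted 0.03). It went from 132, 145 and 157 to 437, 738 and 751 in the controls, whereas in the knockout the RNC-seq values of 217, 322 and 605 overlapped the RNA-seq values of 220, 194 and 287. This call was lost with a pseudocount of 0.1 (0.88, adjusted exact permutation p = 0.06) and without Igf2bp3-/- RNA-seq replicate 2 (1.29, 0.05), RNC-seq replicate 2 (1.38, 0.05) or RNC-seq replicate 3 (1.15, 0.06).

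The Fxr1 to Fxr2 ratio shifted the other way, by -0.55 (exact permutation p = 0.01, adjusted 0.03), made up of -0.23 in Igf2bp3+/- and -0.86 in Igf2bp3-/-. It stood at 49.5, 48.2 and 49.5 in control RNA-seq and at 49.5, 35.4 and 41.7 in control RNC-seq, and at 56.9, 48.6 and 51.2 against 23.6, 28.1 and 35.6 in the knockout. The control RNA-seq libraries thus held Fxr1 and Fxr2 in a nearly fixed ratio, and the knockout RNC-seq libraries were all below the RNA-seq libraries of both genotypes but overlapped the control RNC-seq libraries. For the Y-box pairs the shifts between assays were -0.33 for Ybx1 to Ybx3, 0.37 for Ybx2 to Ybx1 and 0.04 for Ybx2 to Ybx3, with exact permutation p-values of 0.13, 0.225 and 0.765.

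Between genotypes no pair passed the adjustment. Ybx2 to Ybx1 was 1.39, 1.56 and 1.26 in control and 1.66, 1.77 and 1.95 in knockout RNA-seq, with no overlap, and 1.26, 2.57 and 1.17 against 1.91, 4.36 and 2.31 in RNC-seq, with overlap. The log2 difference over both assays was 0.57 (exact permutation p = 0.05, adjusted 0.15), made up of 0.36 in RNA-seq and 0.78 in RNC-seq. Ybx2 to Ybx3 differed by 0.37 (exact permutation p = 0.035, adjusted 0.15). Accordingly, the share of Ybx2 in the summed Y-box FPKM was 43.2% ± 2.04 in control and 47.9% ± 1.48 in knockout RNA-seq (SD, n = 3 each) and 43.3% ± 7.65 against 54.7% ± 6.94 in RNC-seq. The other 4 pairs had adjusted exact permutation p-values from 0.41 to 0.815. Among them, Fxr1 to Fmr1 differed by 0.68 in RNA-seq and by -0.84 in RNC-seq, each larger in size than the Ybx2 to Ybx1 difference in that assay but opposite in sign to each other. The RNA-seq ratios were 132, 145 and 157 in control and 220, 194 and 287 in knockout, with no overlap, and the RNC-seq ratios overlapped.

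**Figure D4:**
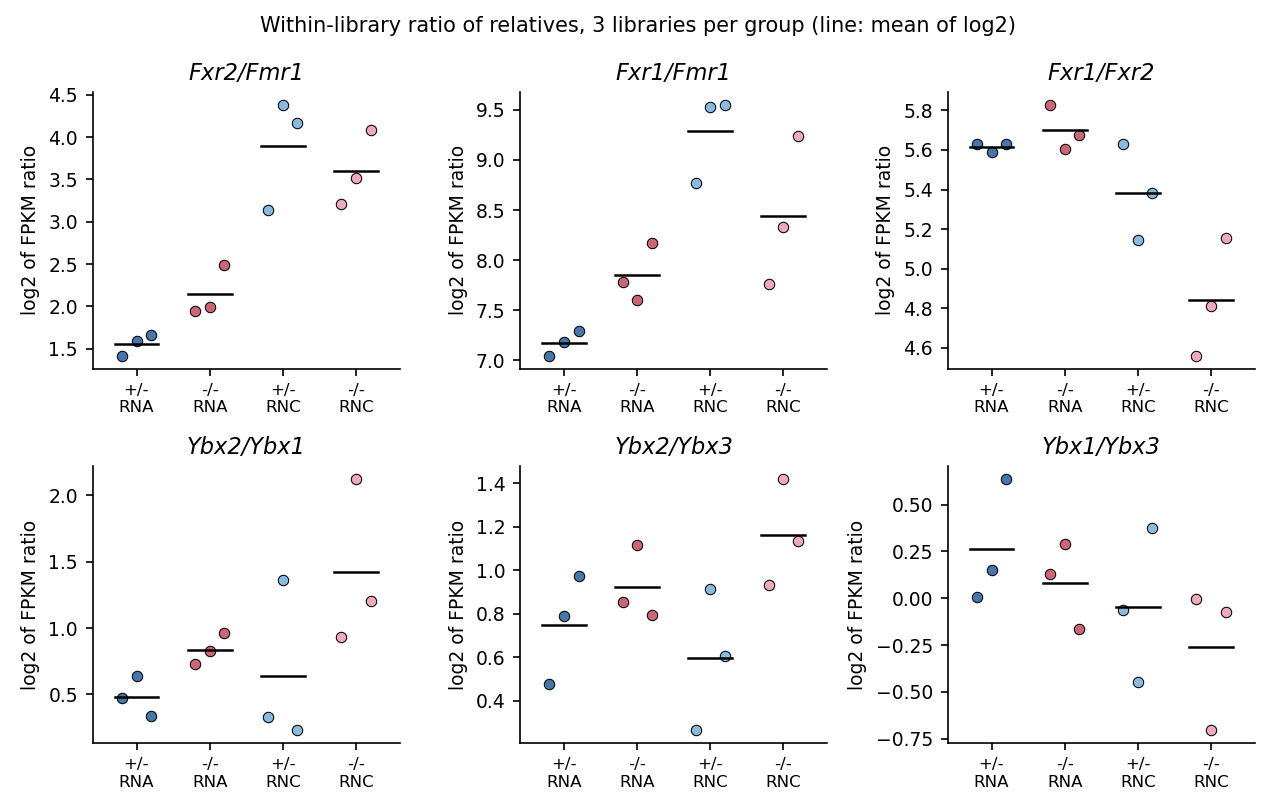
log2 ratio of FPKM between relatives within each library, as points for the 3 replicates of a group and a line for their mean; the y axes differ between panels and do not start at 0. Fxr2 to Fmr1 is higher in all 6 RNC-seq than in all 6 RNA-seq libraries, and Ybx2 to Ybx1 is higher in the knockout than in the control RNA-seq libraries.

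Genes whose profile over the 12 libraries was most like that of each member were named by the highest Pearson's r of log2(FPKM + 0.1) among 11384 genes with a mean of at least 1 FPKM in each assay. The libraries differ in assay, genotype and depth, and r takes in all of these. Fxr1 had the closest neighbors, Zbbx (r = 0.996), the mitotic kinesin gene Kif18a (0.995) and Arhgef6 (0.993). For Fmr1 they were 2010111I01Rik (0.974), the bromodomain gene Brd7 (0.972) and the phospholipase gene Pnpla8 (0.971). Fxr2 was followed by Fam166a (0.929), Slc47a2 (0.913) and Epb41 (0.907). Among Y-box genes, Ybx2 was nearest to the splicing factor gene Sf3b4 (0.953), Dnlz (0.923) and Apoe (0.919), Ybx1 to 1700016K19Rik (0.923), Bcl7c (0.920) and Pnrc1 (0.917), and Ybx3 to Gpatch4 (0.934), Mtdh (0.902) and 4930402K13Rik (0.884). Zbbx, the closest of all, averaged 196 FPKM in RNA-seq and 118 in RNC-seq.

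Genes that work with these families were described from fixed lists. FMRP family partners were taken as the CYFIP, NUFIP and caprin genes and the stress granule genes G3bp1, G3bp2, Ubap2l and Usp10, 10 in all, of which 9 could be tested between assays. The test called RNC-seq lower than RNA-seq for 4 of the 9 in each genotype and higher for none, beside 25.2% lower and 18.6% higher over all genes in Igf2bp3+/- and 14.0% and 12.5% in Igf2bp3-/-. Called or not, 7 of the 9 had values below 0 in Igf2bp3+/- and 8 in Igf2bp3-/-, as did the median gene in both. Those called were Ubap2l (-0.97 and -0.94 in Igf2bp3+/- and Igf2bp3-/-), G3bp2 (-0.84 and -0.81), Caprin1 (-0.79 and -0.64) and Usp10 (-0.58 and -0.76). The median of the 9 was -0.56 in Igf2bp3+/- and -0.64 in Igf2bp3-/-, beside -0.10 and -0.04 over all genes. Cyfip2, whose product binds FMRP, was not called, with 0.41 and 0.17.

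mRNA storage partners, meaning P-body, cap-binding and related RNA-binding genes, numbered 15, of which 13 could be tested. In Igf2bp3+/- 6 were called lower and 1 higher in RNC-seq, and in Igf2bp3-/- 4 were called lower and none higher, against the same shares of all genes. Called or not, 10 of the 13 had values below 0 in Igf2bp3+/- and 9 in Igf2bp3-/-, as did the median gene in both (-0.10 and -0.04). The RNA helicase Ddx6 (-1.40 and -0.91), the decapping scaffold Edc4 (-1.16 and -1.12), Khdrbs1 (-1.25 and -1.12) and the eIF4E transporter Eif4enif1 (-1.12 and -0.70) were called in both genotypes. Dcp1a (-0.79) and Lsm14a (-0.60) were called lower in Igf2bp3+/- only by this limit, with 0.08 and -0.34 in Igf2bp3-/-, and Ptbp2 was higher in Igf2bp3+/- (0.55). The difference between genotypes was tested as the TE interaction and called none of the 13. Of 5 cold shock domain relatives, 2 could be tested between assays, and the result for 1 of them is not reported here. The other, Carhsp1, was called higher in RNC-seq of Igf2bp3+/- (0.40), as were 18.6% of all genes. It was not called in Igf2bp3-/- (0.37). No direction is read for this list as a whole.

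The 10 stored spermatid mRNAs, whose translation is delayed until the spermatid elongates and several of which Y-box proteins are known to bind, were examined in the same way. In Igf2bp3+/- 4 of the 10 were called lower on polysomes, namely Smcp (-0.95), Odf1 (-0.88), Akap3 (-0.50) and Prm2 (-0.49), and Tnp1 was called higher (1.31), against the same shares of all genes. In Igf2bp3-/- none was called lower and 3 were called higher, Tnp1 (1.46), Prm1 (1.08) and Tnp2 (0.75). Called or not, 6 of the 10 had values below 0 in Igf2bp3+/- and 4 in Igf2bp3-/-. The median difference was -0.42 in Igf2bp3+/- and 0.03 in Igf2bp3-/-, beside -0.10 and -0.04 over all genes. For the TE difference between genotypes all 10 had values above 0, with a median of 0.38 beside 0.06 over all genes. The median gene thus lay above 0 as well. The share of all genes above 0 was not counted, so the direction of these 10 is not read as particular to the list. None of the 10 passed the test, the adjusted p-values running from 0.686 to 0.946 (limma). Summed over the list, the knockout RNC-seq libraries ranged from 11394 to 22540 FPKM and included the control range of 12489 to 14991 FPKM. None of the members of any of these 4 lists was called between genotypes in RNA-seq, RNC-seq or TE.

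**Figure D5:**
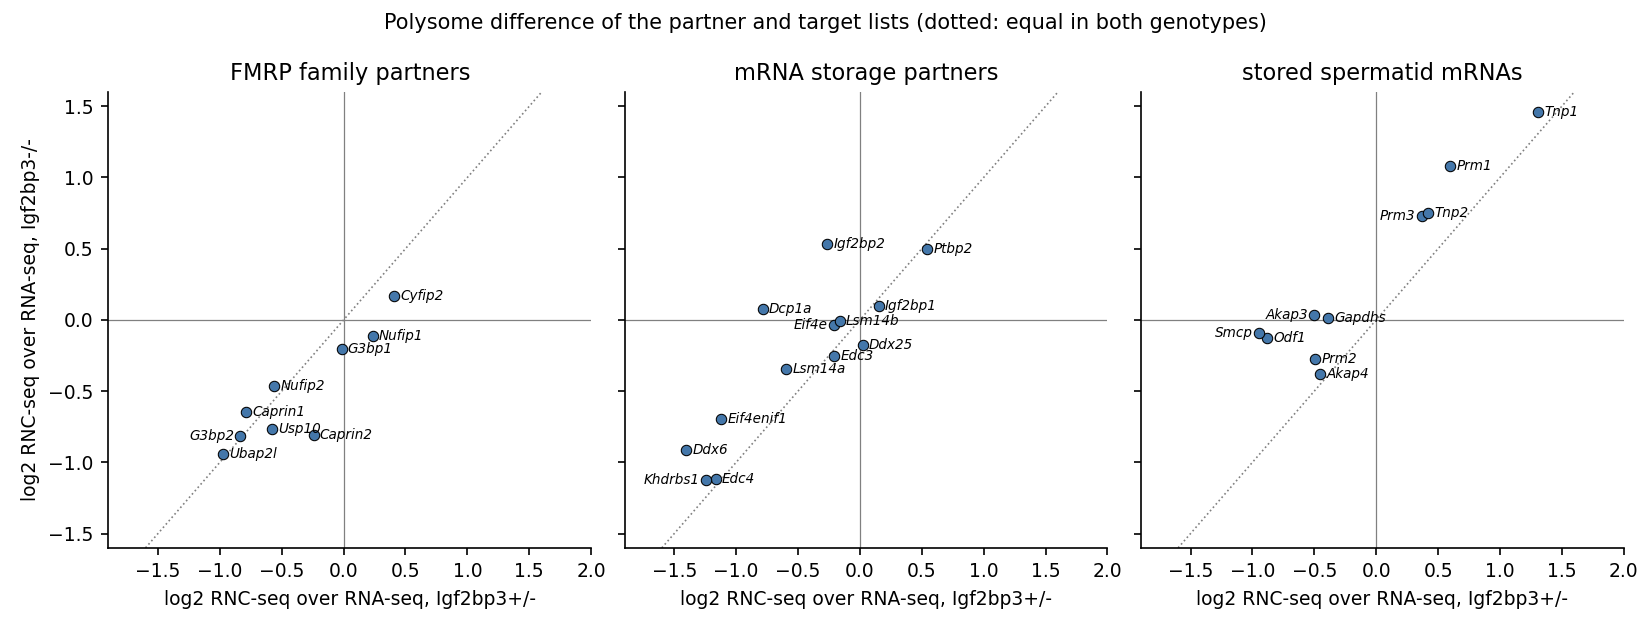
log2 difference of RNC-seq from RNA-seq for genes of 3 lists, with Igf2bp3+/- on the x axis and Igf2bp3-/- on the y axis and a dotted line where both are equal. Ubap2l, G3bp2 and Caprin1 lie at negative values in both genotypes, and the 10 stored spermatid mRNAs lie above the dotted line. The median TE difference between genotypes over all genes was 0.06, on the same side of the line.

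The promoters of 9 of these stored mRNAs were in the RefSeq table, and the Y-box core was found in those of 3, Prm3, Akap3 and Akap4, with 1 match each, where 37.4% of all promoters hold at least 1.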

How the data were processed

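The authors trimmed reads with Trim Galore 0.6.6, aligned them to GRCm38 with HISAT2 and quantified them with StringTie 2.1.7, and deposited 1 table of FPKM per gene symbol and library. The labels describe directional poly(A) libraries, whereas the methods describe another library kit and instrument. Columns named WT are the Igf2bp3+/- libraries by the labels. Of 28668 symbols, 25 that had become dates were left out. FPKM was not rescaled. The test was limma 3.58.1 (R 4.3.3) with an intensity trend, applied to log2(FPKM + 0.1), two-sided, with Benjamini-Hochberg adjustment over all genes above a mean of 0.1 FPKM (in both assays, where both enter) and a limit of 0.05. Fold changes on this scale understate those of low genes. Near-identical copies (identity of 95% or more along 50% or more of the transcript) were found with BLAST 2.17.0 and GENCODE M21. Promoters came from RefSeq.

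The members and lists were chosen with earlier results of these data known. All 6 members were named whatever their values, with the targeted gene Igf2bp3, the 3 genes most like each member, and any gene of the lists. The marker lists of peritubular cells, spermatogonia, spermatocytes and round and elongating spermatids had no gene called between genotypes in RNA-seq or RNC-seq. No protein sequence was used here. The result for 1 cold shock domain relative is not reported here.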

Additional observations from a re-analysis of the deposited data

How the results depend on the processing

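Each of the 30 member differences was recomputed under the other settings, which gave 565 values, of which 540 kept their direction, 25 reversed, 7 lost their call and 1 gained one. The counts of members called between genotypes stayed at 0 in every setting run. Between assays the count fell from 2 to 1 in both genotypes among genes with a mean FPKM above 1, where Fmr1 is not tested, and leaving out 1 library gave 1 to 2 in Igf2bp3+/- and 1 to 3 in Igf2bp3-/-. Outside single-library omissions the reversals were Fxr1 in RNA-seq (-0.050, quantile normalization), Fxr2 in RNA-seq (-0.033, array weights), Ybx3 in TE (0.022, array weights), Ybx3 between assays in Igf2bp3+/- (0.074, median centering) and Ybx2 between assays in Igf2bp3-/- (-0.033, quantile normalization). With 1 library left out, the log2 difference ran from -0.18 to 0.12 for Ybx3 and -0.061 to 0.097 for Fxr2 in RNA-seq, from -0.71 to 0.041 for Ybx1 and -0.36 to 0.034 for Ybx3 in RNC-seq, from -0.52 to 0.22 for Ybx1 and -0.36 to 0.081 for Ybx3 in TE, from -0.27 to 0.025 for Ybx3 between assays in Igf2bp3+/-, and from -0.10 to 0.19 for Ybx2 and -0.093 to 0.27 for Fxr2 in Igf2bp3-/-. The paralog ratios, whose settings were chosen after seeing the data, reversed for Fxr1 to Fmr1 (-0.28 to 0.088) and Fxr2 to Fmr1 (-0.043 to 0.27) between genotypes and for Ybx2 to Ybx3 (-0.037 to 0.13) between assays. The cause of these reversals was not tested.

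Over all genes, calls between genotypes in RNA-seq numbered 40 higher and 12 lower, against 9 and 4 with no filter, 16 and 7 over all 12 libraries and 54 and 30 with array weights. Leaving out 1 library gave 5 to 27 higher and 2 to 11 lower, with 5 and 6 without Igf2bp3-/- replicate 3. In RNC-seq they numbered 15 and 7, against 12 and 1 with no filter, 6 and 7 with median centering, 5 and 7 with quantile normalization, 1 and 0 without the trend and 37 and 10 over all 12 libraries. Leaving out 1 library gave 0 to 15 higher and 0 to 5 lower, with 0 and 0 without Igf2bp3-/- replicate 1 (limma), where 990 genes had an unadjusted p below the limit. For TE they ranged from 0 to 4 over the settings that kept all libraries.

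With a replicate block the members called were 0 between genotypes in RNA-seq, RNC-seq and TE and 2 between assays in each genotype, Fmr1 and Fxr1, with adjusted p-values up to 0.0369 (limma). Over all genes the block left 4 higher and 0 lower in RNA-seq. Where libraries of both assays carry the same number, their deviations from the group means gave Pearson correlations of -0.10 to 0.26 across 11389 genes, so the numbers are not shown to pair the libraries.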
